A study of Mus musculus with 6 samples.

Results

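The tubular injury markers described here were Havcr1, Lcn2, Clu and Igfbp7, 4 of the 55450 genes in a raw count table of mouse kidney mRNA. They were taken by gene symbol, a choice made with earlier results of these data known. All mice were wild-type C57BL/6J males, bought at 7 weeks of age and housed for 1 week before the study began. The 3 day 0 mice, the controls, carried a treatment label of 20% PEG. The 3 day 21 mice were gavaged daily with a mixture of 0.16 g/kg adenine and 2.4 g/kg potassium oxonate, a model of hyperuricemia-related chronic kidney disease. The day 21 mice were therefore older by the length of the treatment, and no mouse received only one of these agents. Each library was 1 kidney sample from 1 mouse. The comparison of day 21 with day 0 asks how far the transcripts of these markers moved in the treated kidney.

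Kidney tubule cells that are damaged but survive lose part of their transport program and switch on genes that are almost silent in the healthy nephron. Havcr1 encodes KIM-1, a transmembrane receptor of the T-cell immunoglobulin and mucin (TIM) family that lets injured proximal tubule cells take up apoptotic bodies and whose ectodomain is shed into urine. Lcn2 encodes NGAL, a secreted lipocalin that binds iron-loaded siderophores; it is made by stressed distal nephron segments and is also stored in neutrophil granules. Clu encodes clusterin, a secreted chaperone for misfolded protein that also restrains the terminal complement complex. Igfbp7 encodes a secreted protein related to the insulin-like growth factor binding proteins, which is abundant around vessels and is used in urine, beside TIMP-2, as a marker of tubular cell-cycle arrest.

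The stretches of DNA just before the annotated starts of these genes differed in base composition. Whether this goes with their levels in control kidney was not tested. Of the 4 genes, 3 had promoter windows in RefSeq (GRCm38.p6), each running from 250 bases before to 50 bases after the start. Clu had none. Igfbp7 had 33 CG dinucleotides in its 300 bases, more than 91.4% of the 32851 windows of all genes, whose median was 7. Lcn2 had 3 and the 3 Havcr1 windows had 4, 3 and 2. The Havcr1 stretch printed is that of the second start, and which start these kidneys used was not tested. Upstream bases outside annotated untranslated exons are printed below, 5′ to 3′ on the strand of the gene, with every CG in capitals.
Havcr1, second start, chr11:46750261-46750510 (+): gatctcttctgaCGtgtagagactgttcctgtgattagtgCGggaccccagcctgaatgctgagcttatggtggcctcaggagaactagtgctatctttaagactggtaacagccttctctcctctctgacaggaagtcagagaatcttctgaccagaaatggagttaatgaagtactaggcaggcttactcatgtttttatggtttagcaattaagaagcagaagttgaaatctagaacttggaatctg
Lcn2, chr2:32387798-32387989 (-): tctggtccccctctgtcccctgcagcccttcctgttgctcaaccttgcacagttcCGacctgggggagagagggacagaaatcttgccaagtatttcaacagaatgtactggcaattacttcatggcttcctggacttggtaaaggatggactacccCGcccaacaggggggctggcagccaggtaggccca
Igfbp7, chr5:77408046-77408295 (-): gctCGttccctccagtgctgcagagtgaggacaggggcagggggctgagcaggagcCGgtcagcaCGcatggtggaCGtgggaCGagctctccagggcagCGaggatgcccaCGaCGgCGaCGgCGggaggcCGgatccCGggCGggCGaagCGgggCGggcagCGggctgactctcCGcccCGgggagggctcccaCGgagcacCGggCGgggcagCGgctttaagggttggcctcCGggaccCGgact
The printed Igfbp7 stretch held 26 CG, against 2 in that of Havcr1 and 2 in that of Lcn2. The Lcn2 stretch is shorter because the bases nearest to the RefSeq start are untranslated exon in GENCODE, and it includes bases that a further GENCODE transcript of Lcn2 reads as exon.

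The windows were searched on both strands for 6 short motifs. The C/EBP-type letters TTGCNNAA occurred once in the Lcn2 window, as TTGCTCAA 216 bases before the start, and once in the second Havcr1 window, 46 bases before the start. They occurred in 10.8% of all windows. The AP-1 letters TGANTCA occurred once, as TGAATCA just after the third Havcr1 start, and in 7.81% of all windows. No window of the 3 genes held the TATA box letters TATAAA (13.6% of all windows), the NF-kB-type letters GGGA and, 4 bases on, CC (20.7%), the STAT letters TTCNNNGAA (8.3%) or the TEAD letters GGAATG (14.7%), and none of the matches overlapped another. A match is only a match of letters.

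The libraries held 10963849 to 14333311 counted reads. Levels are given as normalised read counts (CPM, reads scaled to a common library size) after TMM scaling, whose factors were 0.8521 to 0.8862 on day 0 and 1.119 to 1.172 on day 21. A count of 3 corresponded to 0.179 to 0.309 CPM. Genes were compared by edgeR's quasi-likelihood test over the 16592 genes that passed a filter on low counts, with Benjamini-Hochberg adjustment, and a differentially expressed gene (DEG) passed both an adjusted p of 0.05 and 1.5-fold in either direction. By this rule 35.1% of all tested genes were DEGs, with 19.6% higher and 15.5% lower on day 21, so a DEG was common in this comparison. Of the DEGs, 55.8% were higher on day 21, a share that was 81.7% with library size alone and 63.0% with upper quartile scaling. All 4 markers passed the filter, and 3 of them (Havcr1, Lcn2 and Clu) were DEGs, all higher on day 21. The day 0 and day 21 mice did not overlap for any of the 4, as for 57.1% of all tested genes (30.7% with day 21 higher). With 3 mice per group, the smallest two-sided p that an exact permutation test can give is 0.1, and each of the 4 genes had that value. A whole-kidney level cannot tell fewer cells of a type from less RNA per cell.

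**Figure D1:**
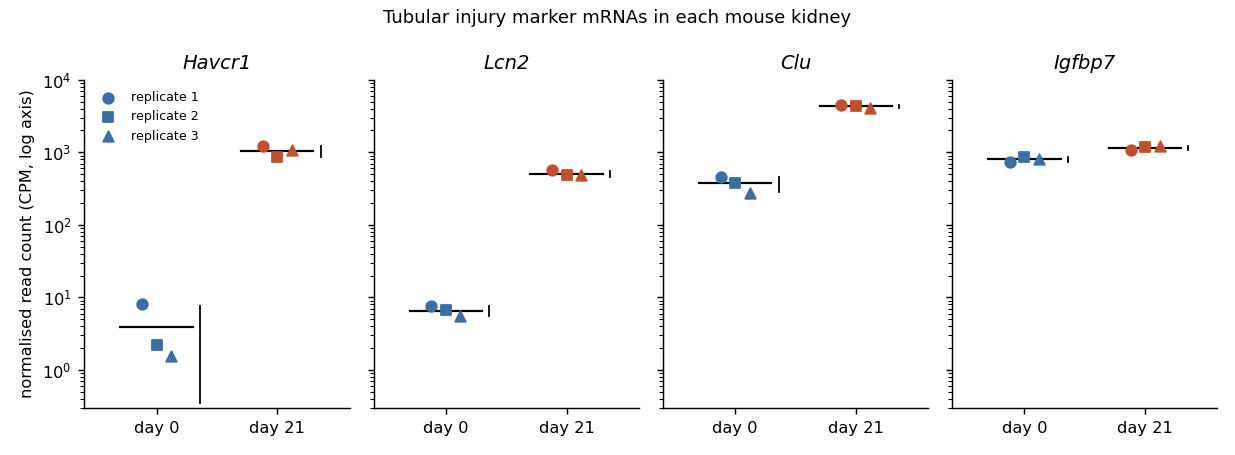
Normalised read count (CPM, log axis) of the 4 markers in each mouse, with day 0 in blue and day 21 in red. Symbols are the 3 replicates, horizontal lines the group means and vertical lines the SD (n = 3). Havcr1 and Lcn2 were under 10 CPM in every control, and Igfbp7 was at 742 CPM or more in all 6 mice.

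Havcr1, the receptor known as KIM-1, made the largest move of the 4. Its gene (ENSMUSG00000040405.13, mm10 chromosome 11, 46735080 to 46779578, plus strand) has 8 exons in its longest transcript. The day 0 mice had 81, 27 and 15 reads, or 8.12, 2.23 and 1.55 CPM. The day 21 mice had 17312, 14487 and 17424 reads, or 1220, 864 and 1070 CPM. The lowest day 21 mouse was thus 106 times the highest day 0 mouse, and the means were 3.96 ± 3.62 and 1050 ± 180 CPM (SD, n = 3). The log2 fold change was 8.07 (SE 0.48, edgeR adjusted p = 1.9e-06), a 268-fold rise with a 95% confidence interval of 128 to 562. Havcr1 ranked 12 of the 3249 higher DEGs by fold change.

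The wide interval of Havcr1 came with a wide spread on day 0. Its coefficient of variation was 91.2% in the controls, above that of 97.8% of tested genes, and 17.1% on day 21. Day 0 replicate 1 had 5.25 times the CPM of replicate 3. Their counting intervals (exact Poisson, 95%, counting error only) were 6.45 to 10.1 and 0.865 to 2.55 CPM, which did not meet. Leaving out day 0 replicate 1 raised the log2 fold change to 9.07, a move of more than 1.5 times in fold. Leaving out day 0 replicate 3 gave 7.69. The level in control kidney, and with it the size of the fold, therefore rested on 123 reads in all.

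A part of Havcr1 cannot be told from its neighbour Timd2 by short stretches of sequence. Words of 50 bases shared with Timd2 or with Gm4926, a non-coding gene, covered 253 of the 2030 bases of the longest Havcr1 transcript (12.5%). One of these stretches lies in the coding part of exon 4 (chr11:46756164-46756246, mm10, plus strand), printed here to show how alike the genes are, with the 53 bases found in Timd2 in capitals.
Havcr1 exon 4: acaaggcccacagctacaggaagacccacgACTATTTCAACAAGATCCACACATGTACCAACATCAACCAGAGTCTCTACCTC
Timd2 rose far less than Havcr1, from 53.7 ± 6.38 to 111 ± 25.0 CPM (SD, n = 3; log2 fold change 1.05, adjusted p = 0.00059). In reads, Havcr1 per Timd2 was 0.173, 0.0407 and 0.026 on day 0 and 8.96, 9.98 and 9.71 on day 21. Timd2 had the more reads of the pair in every control and Havcr1 in every day 21 mouse.

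Lcn2, which encodes the siderophore-binding protein NGAL, rose next most. Its gene (ENSMUSG00000026822.14) lies on the minus strand of mm10 chromosome 2, from 32384633 to 32388252. The day 0 mice had 75, 82 and 53 reads (7.52, 6.76 and 5.46 CPM) and the day 21 mice 8013, 8078 and 7866 reads (566, 482 and 482 CPM). The means were 6.58 ± 1.04 and 510 ± 48.8 CPM (SD, n = 3). The log2 fold change was 6.27 (SE 0.16, edgeR adjusted p = 4.7e-08), a 77.3-fold rise with a 95% confidence interval of 60.0 to 99.6, and it ranked 42 of the higher DEGs. The coefficient of variation was 15.8% on day 0 and 9.58% on day 21, so the controls that were far apart for Havcr1 were close together for Lcn2.

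Clu, the secreted chaperone clusterin, reached the highest level. Its gene (ENSMUSG00000022037.15) lies on the plus strand of mm10 chromosome 14, from 65968483 to 65981547, and has 9 annotated transcripts. The controls were already well expressed, with 4563, 4637 and 2670 reads (458, 382 and 275 CPM). The day 21 mice had 63449, 72289 and 66822 reads (4490, 4310 and 4090 CPM). The means were 372 ± 91.6 and 4300 ± 197 CPM (SD, n = 3). The log2 fold change was 3.53 (SE 0.19, edgeR adjusted p = 1.2e-06), an 11.6-fold rise with a 95% confidence interval of 8.60 to 15.5. By mean CPM, Clu moved from rank 399 of all genes in the table to rank 6.

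Igfbp7, the secreted binding protein used beside TIMP-2, was the exception. Its gene (ENSMUSG00000036256.13) lies on the minus strand of mm10 chromosome 5, from 77349240 to 77408041. The day 0 mice had 7395, 10560 and 7878 reads (742, 870 and 812 CPM) and the day 21 mice 14971, 19618 and 19746 reads (1060, 1170 and 1210 CPM). All day 21 mice were above all day 0 mice, but the lowest was just 1.22 times the highest control. The means were 808 ± 64.5 and 1150 ± 78.4 CPM (SD, n = 3). The log2 fold change was 0.50 (SE 0.12, edgeR adjusted p = 0.0055), a 1.42-fold difference with a 95% confidence interval of 1.18 to 1.70. It passed the p threshold and missed the fold threshold of 1.5, so Igfbp7 was not a DEG. By signed log2 fold change, 73.5% of tested genes were below it, a share that includes every gene that fell. Scaled by upper quartile it passed both thresholds (log2 fold change 0.59, adjusted p = 0.0024). With no scaling beyond library size it did so too (0.90, adjusted p = 0.00011), but that scaling put the median of all tested genes at 0.421 instead of 0.032. Of its exon bases, 85 (7.03%) also lie in Polr2b on the opposite strand, and the strand setting of the counting is not given in the sources used here.

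The 95% confidence intervals of the 4 log2 fold changes did not overlap one another. They ran from 7.00 to 9.13 for Havcr1, 5.91 to 6.64 for Lcn2, 3.10 to 3.96 for Clu and 0.24 to 0.76 for Igfbp7. Within single mice, Havcr1 per Lcn2 in reads was 1.08, 0.329 and 0.283 on day 0 and 2.16, 1.79 and 2.22 on day 21. Havcr1 thus overtook Lcn2 in reads in all 3 treated mice, whereas the controls were divided.

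Per kilobase of exon, the order of the levels also changed. On day 0, Igfbp7 led at 613, 720 and 672 CPM per kilobase, followed by Clu at 133, 111 and 80.1. Lcn2 (2.87, 2.58 and 2.08) and Havcr1 (3.51, 0.963 and 0.669) were far below and were not separated, since Havcr1 was above Lcn2 in replicate 1 and below it in the others. On day 21 the order was the same in all 3 mice. Clu led at 1300, 1250 and 1190 CPM per kilobase, followed by Igfbp7 at 875, 968 and 1000, Havcr1 at 530, 374 and 462, and Lcn2 at 216, 184 and 184. No neighbours in the day 21 order overlapped. With the length of the longest transcript in place of all exons, Lcn2 was above Havcr1 in all 3 controls, and the day 21 order stayed as it was.

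**Figure D2:**
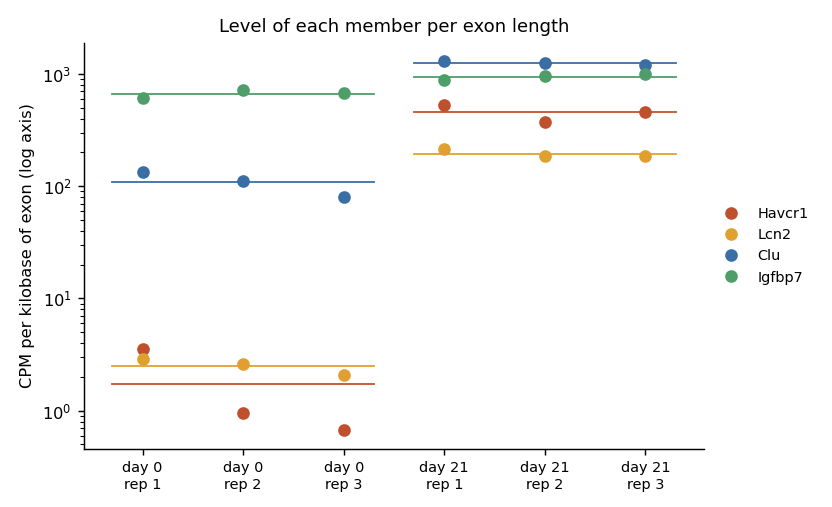
Level of each marker in each mouse as CPM per kilobase of merged exons (log axis), with lines at the group means. Igfbp7 was on top in all controls and Clu in all day 21 mice, while Havcr1 and Lcn2 crossed among the controls.

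Together the 4 genes took 0.0968 to 0.107% of each control library and 0.782 to 0.819% of each day 21 library. In the controls 61.0 to 74.2% of these reads were Igfbp7, and on day 21 this was 14.4 to 17.7%. Clu rose from 25.2 to 37.7% of them to 59.7 to 63.1%, and Havcr1 from 0.141 to 0.669% to 12.7 to 16.7%.

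Other genes used as urinary markers of kidney injury did not move as one. Of 18 listed, 16 were tested, 6 were higher DEGs (19.6% of all tested genes were) and 6 were lower DEGs (15.5% were). The median log2 fold change was -0.15. Spp1, which encodes the matrix glycoprotein osteopontin, rose from 959 ± 579 to 18800 ± 2110 CPM (SD, n = 3; log2 fold change 4.29, adjusted p = 1.6e-05). Ccl2, a monocyte chemoattractant, rose by 4.08 on the log2 scale (adjusted p = 3.9e-05), and by 4.76 without day 0 replicate 1. Timp2, the inhibitor of metalloproteinases measured beside IGFBP7 in urine, rose from 63.6 ± 12.1 to 137 ± 12.7 CPM (1.11, adjusted p = 0.00017). In reads, Igfbp7 per Timp2 was 14.2, 14.0 and 10.6 in the controls and 8.03, 9.11 and 7.96 on day 21, so Timp2 gained on Igfbp7 and the groups did not overlap. Egf, a growth factor made by the distal nephron, fell from 1890 ± 333 to 100 ± 12.2 CPM (-4.23, adjusted p = 3.2e-07). Alb, whose mRNA was at 6.96 ± 0.65 CPM on day 0, also fell (-2.82, adjusted p = 6.8e-05). Umod, the most abundant urinary protein gene of the thick ascending limb, had 4670 ± 719 and 3410 ± 208 CPM and was not a DEG (-0.45, adjusted p = 0.027).

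**Figure D3:**
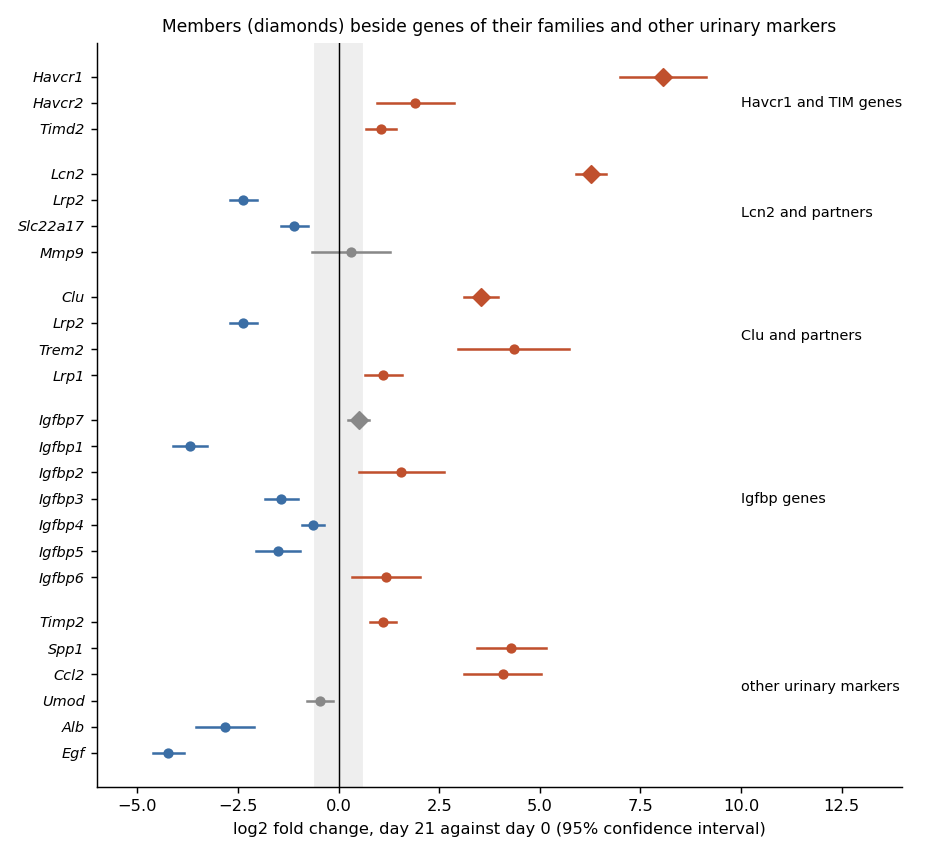
Log2 fold change of day 21 against day 0 with its 95% confidence interval for the 4 markers (diamonds) and for genes of their families or pathways (circles). Higher DEGs are red, lower DEGs blue and the rest grey, with a shaded band where the fold is under 1.5. Igfbp7 sits in the band, at 0.50, and the other 3 markers lie to its right.

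Genes listed as markers of injured proximal tubule cells mostly rose with Havcr1. The cells that carried these transcripts were not identified, and the macrophage and fibroblast lists rose in the same mice, as given below. All 15 listed were tested, 13 were higher DEGs and none was a lower DEG, with a median log2 fold change of 1.82 against 0.032 over all tested genes. Sox9, a transcription factor of regenerating tubule, rose from 1.01 ± 0.39 to 26.1 ± 7.2 CPM (4.72, adjusted p = 3e-06). Vcam1, an adhesion molecule, rose from 21.3 ± 6.98 to 457 ± 31.7 CPM (4.43, adjusted p = 9e-07), and Cd44, a hyaluronan receptor, from 3.1 ± 0.676 to 66.4 ± 16.2 CPM (4.41, adjusted p = 1.1e-06). Krt20, an epithelial keratin, rose by 3.40 (adjusted p = 0.0073), and this value rested on the controls, as described below.

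Over the same mice all 18 markers of the mature proximal tubule were lower DEGs, with a median log2 fold change of -2.10 and a summed level of 36140 to 50170 CPM on day 0 and 7529 to 10160 CPM on day 21. Lrp2 encodes megalin, the apical receptor that takes up filtered proteins, NGAL and clusterin among them. It fell from 2570 ± 252 to 497 ± 83.1 CPM (SD, n = 3; -2.37, adjusted p = 2.5e-06). In reads, with no correction for transcript length, Havcr1 per Lrp2 was 0.00284, 0.000924 and 0.000635 on day 0 and 2.07, 1.99 and 2.29 on day 21. This ratio was below 1 in every control and above 1 in every treated mouse. Lcn2 per Lrp2 likewise rose from 0.00263, 0.0028 and 0.00224 to 0.959, 1.11 and 1.04, and Clu per Lrp2 from 0.16, 0.159 and 0.113 to 7.59, 9.94 and 8.8.

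KIM-1 is a receptor for apoptotic cells, and other genes of that process were read beside it. Of 18 listed, 15 were tested, 10 were higher and 3 lower DEGs, with a median log2 fold change of 1.00. For all tested genes the shares were 19.6% higher and 15.5% lower, and the median was 0.032. Havcr2, which encodes TIM-3, rose from 0.957 ± 0.303 to 3.57 ± 1.55 CPM (1.91, adjusted p = 0.0048). Timd4, the TIM gene of tissue macrophages, was too low to test. Axl, a receptor tyrosine kinase for bridged phosphatidylserine, rose by 1.81 (adjusted p = 1.7e-06). Pros1, also on the list, rose by 1.57 (adjusted p = 3.9e-05). Gas6, an Axl ligand, had 429 ± 11.6 and 473 ± 21.6 CPM and was not a DEG (0.14, adjusted p = 0.30). The scavenger receptors Stab2 (-2.29, adjusted p = 0.005) and Cd36 (-1.38, adjusted p = 0.0087) fell.

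The macrophage and T cell lists also rose. All 8 macrophage markers were higher DEGs, with a summed level of 137.4 to 174.1 CPM on day 0 and 716.6 to 859.1 CPM on day 21. All 7 T cell markers were higher DEGs (5.608 to 12.12 and 32.29 to 39.08 CPM in sum). Of 5 B cell markers, 1 was tested and it was not a DEG (0.927 to 2.966 and 2.204 to 4.054 CPM in sum). The part of these cells in the levels of the 4 genes was not tested.

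Most other lipocalin genes were too low to test in these kidneys. Of 20 lipocalin and partner genes other than Lcn2, just 6 passed the filter, with 2 higher DEGs, 2 lower DEGs and a median log2 fold change of -0.08. Among all tested genes 19.6% were higher and 15.5% lower DEGs. Ptgds, the lipocalin-type prostaglandin synthase, rose by 0.83 (adjusted p = 0.0055). Apod, a lipid-binding lipocalin, was a higher DEG from few reads, with 2, 5 and 0 on day 0 and 25, 13 and 28 on day 21. Apom, an apolipoprotein carrier of sphingosine phosphate, fell from 82.8 ± 22.4 to 14.4 ± 2.12 CPM (-2.53, adjusted p = 9.4e-06). Slc22a17, a proposed NGAL receptor, fell from 27.8 ± 4.7 to 13.0 ± 0.589 CPM (-1.10, adjusted p = 0.00025). Mmp9, the gelatinase that NGAL protects, had 1.99 ± 0.987 and 2.51 ± 0.991 CPM (0.31, adjusted p = 0.60). Its direction turned when day 21 replicate 1 was left out (-0.03). Lrp2 and Slc22a17, both described as uptake receptors of NGAL, thus had lower mRNA on day 21, while Lcn2 itself was higher.

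Neutrophils store NGAL, but their marker genes did not rise with Lcn2 as a group. Of 12 neutrophil markers, 5 passed the filter, 1 (Csf3r, a growth factor receptor) was a higher DEG and 2 were lower DEGs. The summed level was 16.7 to 33.89 CPM on day 0 and 12.38 to 13.77 CPM on day 21. S100a8 and S100a9, which form the granulocyte protein calprotectin, fell by 1.97 (adjusted p = 0.006) and 1.99 (adjusted p = 0.00068) on the log2 scale. In reads, Lcn2 per S100a9 was 0.789, 0.509 and 0.898 on day 0 and 258, 245 and 154 on day 21. Of the granule genes, Camp had 2, 5 and 0 reads on day 0 and Ngp had 17, 26 and 0, and neither had a read on day 21. Ltf, which encodes the granule protein lactoferrin, had 30, 18 and 3 reads on day 0 and 18, 15 and 11 on day 21. Elane and Mpo, named after their values were seen, had no read in any of the 6 libraries. The part of neutrophils in the level of Lcn2 was not tested.

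**Figure D4:**
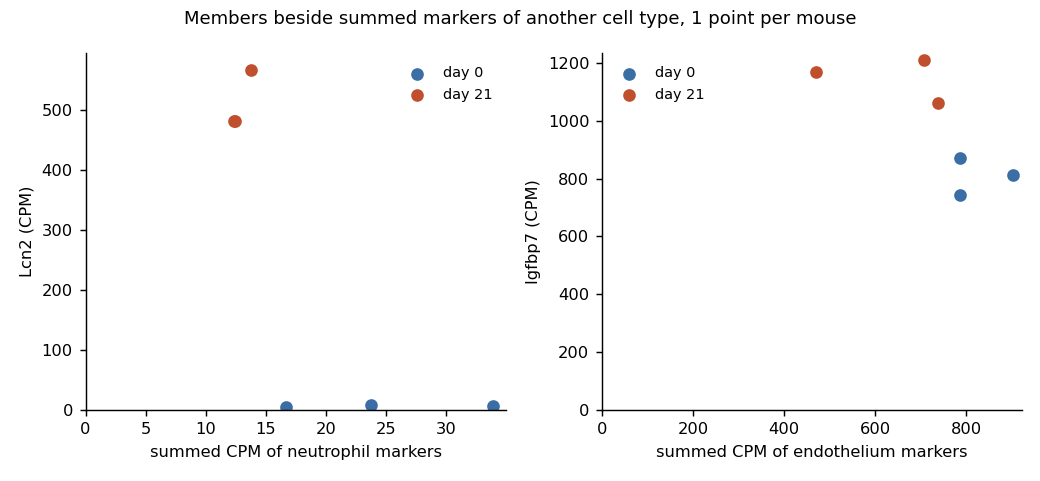
Left, Lcn2 against the summed CPM of 12 neutrophil markers, and right, Igfbp7 against the summed CPM of 10 endothelium markers, 1 point per mouse, with day 0 in blue and day 21 in red. The day 21 mice had the higher Lcn2 and the lower neutrophil sum, and the higher Igfbp7 and the lower endothelium sum. Of the 10 endothelium markers, 8 were not DEGs. The sums are after TMM scaling and were not taken under other scalings.

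The NF-kB, STAT and C/EBP genes that are known to drive Lcn2 transcription were mostly higher. Of 9 tested, 8 were higher DEGs and 0 were lower DEGs, with a median log2 fold change of 1.05. Bcl3, a nuclear NF-kB cofactor, rose from 9.44 ± 2.14 to 38.3 ± 2.09 CPM (SD, n = 3; 2.02, adjusted p = 1.1e-05). Nfkbiz, the inducible cofactor IkB-zeta, rose from 7.54 ± 2.45 to 27.9 ± 1.09 CPM (1.89, adjusted p = 4.7e-05). The NF-kB subunits Relb (1.83, adjusted p = 0.00041) and Nfkb2 (1.34, adjusted p = 3e-05) rose as well. Stat3, the main effector of interleukin-6 signalling, had 155 ± 63.7 and 209 ± 8.87 CPM and was not a DEG (0.43, adjusted p = 0.16). Without day 0 replicate 1 it was a DEG (0.78, adjusted p = 0.0012).

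Genes that work with clusterin moved both ways. Of 19 receptors, terminal complement genes and extracellular chaperones, 16 were tested, 5 were higher and 5 lower DEGs, and the median log2 fold change was 0.11. All tested genes had 19.6% higher and 15.5% lower DEGs. Trem2, a myeloid receptor that binds clusterin, rose from 0.355 ± 0.263 to 7.77 ± 4.91 CPM (4.35, adjusted p = 0.00028). Its log2 fold change was 5.20 without day 0 replicate 2 and 3.73 without day 21 replicate 2. Lrp1, a large endocytic receptor, rose by 1.11 (adjusted p = 0.0014), and Lrp2 fell as given above. Hc, which encodes complement component C5, was a higher DEG from few reads, with 0, 0 and 1 on day 0 and 11, 12 and 13 on day 21. C8a, a component of the membrane attack complex, fell from 32.5 ± 3.46 to 0.873 ± 0.482 CPM (-5.23, adjusted p = 1.2e-06). Pzp, an alpha-2-macroglobulin type protease inhibitor and extracellular chaperone, fell from 70.6 ± 54.0 to 2.26 ± 0.11 CPM (-4.96, adjusted p = 0.00012). Without day 0 replicate 3 its log2 fold change was -4.28.

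More genes of the insulin-like growth factor axis were lower than higher DEGs, and Igfbp7 was neither. Of 22 other genes of the axis, 20 were tested, 4 were higher and 9 lower DEGs. Over all tested genes 19.6% were higher and 15.5% lower DEGs. The median log2 fold change of the axis was -0.59, against 0.032 for all tested genes. Of the binding protein genes, Igfbp1 fell from 56.3 ± 5.15 to 4.38 ± 1.16 CPM (-3.69, adjusted p = 1.1e-06). Igfbp3, the main carrier in plasma, fell from 265 ± 37.3 to 98.9 ± 23.1 CPM (-1.42, adjusted p = 0.00013), and Igfbp5 from 644 ± 173 to 227 ± 68.6 CPM (-1.51, adjusted p = 0.00065). Igfbp4 fell from 1050 ± 126 to 674 ± 15.0 CPM (-0.65, adjusted p = 0.0017), a call that was lost by fold with upper quartile scaling (-0.56) and with library size alone (-0.26). Igfbp2 (1.56, adjusted p = 0.021) and Igfbp6 (1.18, adjusted p = 0.027) rose from low levels, and each lost its call without day 0 replicate 2, day 21 replicate 2 or day 21 replicate 3 (Igfbp6 also without day 0 replicate 3). Without day 0 replicate 3 the log2 fold change of Igfbp2 was 2.15. The ligand Igf1 rose from 7.12 ± 0.958 to 14.4 ± 1.26 CPM (1.02, adjusted p = 0.0011), as did Stc2, a stanniocalcin (1.68, adjusted p = 0.00012). The receptor Igf1r was at 216 ± 26.4 and 149 ± 6.24 CPM, which missed the fold threshold (-0.54, adjusted p = 0.0041).

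Counted in reads, Igfbp7 per Igfbp4 was 0.653, 0.777 and 0.893 on day 0 and 1.61, 1.72 and 1.77 on day 21. Igfbp7 passed Igfbp4 in all 3 day 21 mice and in no control.

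Igfbp7 is strongly expressed by endothelium, and none of the endothelium markers was a higher DEG. Of 10 endothelium markers, all tested, 0 were higher and 2 were lower DEGs, with a median log2 fold change of -0.32 and a summed level of 786.7 to 902.0 CPM on day 0 and 471.2 to 737.9 CPM on day 21. The lower DEGs were the VEGF receptors Kdr (-1.33, adjusted p = 0.00011) and Flt1 (-1.22, adjusted p = 0.0022). Plvap, the diaphragm protein of fenestrated capillaries, had 175 ± 20.9 and 148 ± 37.1 CPM (-0.25, adjusted p = 0.29). Eng, a TGF-beta co-receptor, had 125 ± 18.4 and 135 ± 19.9 CPM (0.11, adjusted p = 0.59). Egfl7, a protein secreted by endothelium and named after its values were seen, had 14.3 ± 0.95 and 20.4 ± 2.42 CPM in groups that did not overlap. Its log2 fold change of 0.51 (adjusted p = 0.016) missed the fold threshold, as did that of Igfbp7 (0.50). In reads, Igfbp7 per Plvap was 4.43, 5.45 and 4.08 on day 0 and 6.08, 11.1 and 7.37 on day 21. The part of endothelium in the level of Igfbp7 was not tested.

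Fibroblast and myofibroblast markers were at a summed 273.6 to 398.4 CPM on day 0 and 1205 to 2265 CPM on day 21, and all 8 were higher DEGs. Their part in the level of Igfbp7 was not tested. Day 21 replicate 2 had the lowest sum of fibroblast markers and of endothelium markers among the treated mice, and its Igfbp7 level of 1170 CPM was between those of the others.

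Markers of the remaining nephron segments, where Lcn2 and Clu can also be made, did not rise as groups. Nor did those of podocytes and urothelium. Of 9 markers of thick ascending limb and distal tubule, 1 was a higher and 6 were lower DEGs (7118 to 8356 and 4259 to 4890 CPM in sum). Of 11 collecting duct markers, 0 were higher and 5 were lower DEGs (900.2 to 947.3 and 535.1 to 661.0 CPM). Of 5 podocyte markers, 3 were lower DEGs (400.6 to 639.6 and 308.0 to 359.6 CPM). Of 6 urothelium markers, 1 was a lower DEG (5.604 to 29.58 and 7.453 to 14.4 CPM).

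The controls were not alike in some injury genes. Day 0 replicate 1 was the highest control for 3 of the 4 markers, for 8 of the 15 injured proximal tubule genes and for 9 of the 9 regulators of Lcn2, whereas it was highest for 32.5% of all tested genes. Among the other urinary markers it was highest for 6 of the 16 tested. It was also highest for 11 of the 20 tested growth factor axis genes and 7 of the 15 tested clearance genes. For clusterin partners this was 4 of 16, and for lipocalins 0 of 6. The Havcr1 level of replicate 1 was 4.31 times the mean of the other 2 controls, and its Lcn2 level was 1.23 times theirs. For Lcn2 the counting intervals of replicates 1 and 2 overlapped (5.92 to 9.43 and 5.38 to 8.39 CPM). Krt20 had 160, 3 and 5 reads in the 3 controls, Atf3, a stress-induced transcription factor, had 98, 24 and 22, and Tnfrsf12a, the TWEAK receptor, had 2216, 646 and 340. These last 2 genes were picked after their values were seen. Tnfrsf12a had 103 ± 103 and 112 ± 12.3 CPM and was not a DEG (0.12, adjusted p = 0.87), but was one without this mouse (1.32, adjusted p = 0.00024), and its direction turned without either of the other controls (-0.20 and -0.30). Without this mouse Krt20 had a log2 fold change of 7.24 (adjusted p = 7.2e-08; 2.79 without day 0 replicate 2), Atf3 moved from 2.24 to 3.34 and Spp1 from 4.29 to 4.87. The log2 fold changes of the other 3 markers without it were between 0.43 for Igfbp7 and 6.35 for Lcn2, with no change of call. What set this mouse apart was not tested.

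**Figure D5:**
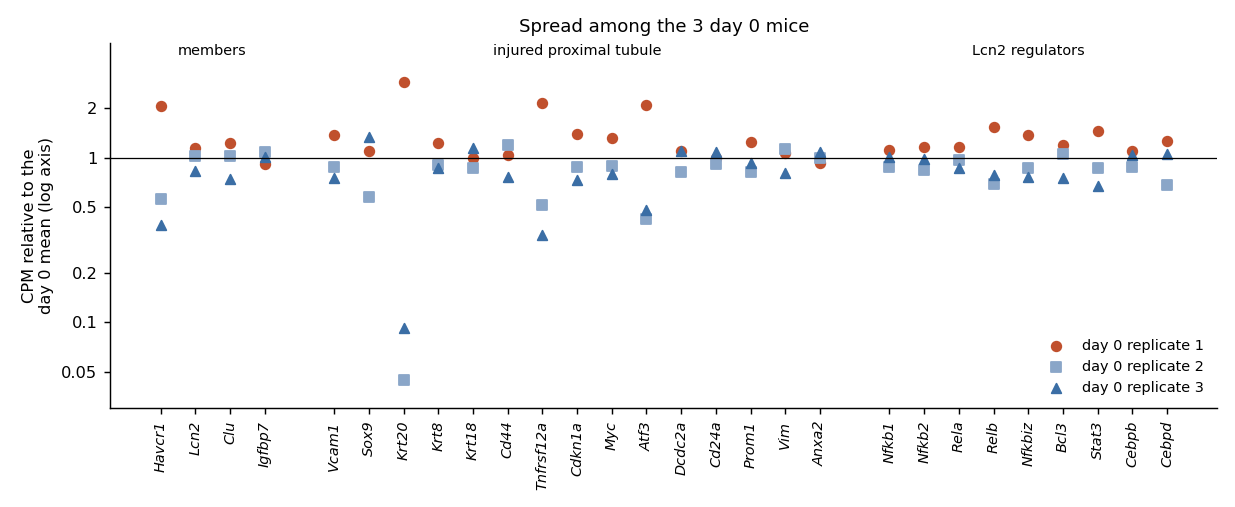
CPM of the 4 markers, 15 injured proximal tubule genes and 9 regulators of Lcn2 in each day 0 mouse, relative to the day 0 mean of that gene (log axis). Red circles are replicate 1, which was highest for 3, 8 and 9 of these genes respectively.

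The genes whose profile over the 6 libraries was most like that of each marker were found by the distance between centred log2 CPM values among 13142 genes with a mean of at least 50 reads. For Lcn2 they were C3 (distance 0.648), the central complement component, Serpina10 (0.755) and Sprr2f (1.12). C3 rose from 31.0 to 1760 CPM in the mean and Serpina10 from 0.944 to 108 CPM. Sprr2f had 1, 0 and 0 reads on day 0 and a log2 fold change of 9.055, against 6.27 for Lcn2. Its distance therefore depended on the 0.5 CPM added before taking logs. For Havcr1 they were Serpina10 (2.75), Lcn2 itself (2.76) and C3 (3.10), all at larger distances than those of Lcn2. For Clu they were Clcf1 (0.398), Cp (0.447), which encodes ceruloplasmin, and Smpdl3b (0.490). For Igfbp7 they were Dbnl (0.116), Scrn1 (0.119) and Pld3 (0.119), 3 genes with log2 fold changes of 0.49, 0.54 and 0.45. Among the markers themselves, Havcr1 and Lcn2 were closest (2.76) and Havcr1 and Igfbp7 farthest (9.54). A distance over 6 libraries that fall into 2 groups is mostly the likeness of fold changes, which the added 0.5 CPM shrinks for genes near 0.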

How the data were processed

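Whole-kidney mRNA of 6 mice was sequenced by the authors as paired 150-base reads from TruSeq RNA libraries. Per the labels, reads were aligned to mm10 with TopHat. The counting program, its strand setting and its filters are not given in the sources used here. The deposited values were raw counts per gene, and all 55450 gene identifiers matched GENCODE M21. Samples were grouped by their labels into day 0 (n = 3) and day 21 (n = 3). Nothing says that the kidneys were handled in separate batches. No 2 libraries of the same group agreed within counting error, and pairs across groups were not checked.

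Genes were tested with edgeR 4.0.16 in R 4.3.3 (quasi-likelihood test, TMM scaling, filterByExpr with a minimum count of 10 and total of 15, Benjamini-Hochberg adjustment over 16592 genes). Confidence intervals are at 95%. CPM used TMM-scaled library sizes, and levels between genes were divided by merged exon length. Profiles were compared as log2(CPM + 0.5). The test was checked on simulated counts of 16250 genes, where it called 96 of 100 genes changed 4-fold, 74 of 100 changed 2-fold and 14 unchanged genes. That check held a far smaller share of changed genes than the 35.1% of tested genes that were DEGs in the data. How the test and the scaling behave at such a share was not tested. Alternatives were other scalings and filters, DESeq2 1.42.0, limma-voom (limma 3.58.1), thinning, a replicate block and leaving out each mouse. Promoter windows came from RefSeq (GRCm38.p6).

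The 4 genes and all gene lists were chosen with earlier results of these data known. Genes are named by rule: the 4 markers, up to 4 called genes of each list with the largest change, textbook partners of the markers, the 2 most abundant genes of each list, and the 3 genes nearest to each marker. Exceptions are stated where they occur. Lists named here were those for other urinary markers, injured and mature proximal tubule, apoptotic cell clearance, lipocalins, regulators of Lcn2, clusterin partners, the insulin-like growth factor axis, and 10 further cell types.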

Additional observations from a re-analysis of the deposited data

How the results depend on the processing

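Havcr1, Lcn2 and Clu kept their direction and their call under every alternative run. Their log2 fold changes ranged from 7.69 to 9.07 over 17 alternatives, from 6.14 to 6.66 over 17 and from 3.34 to 3.92 over 16, respectively (Clu has no value with the 20 highest genes left out, since it is one of them). The ranges over left-out mice were 7.69 to 9.07, 6.14 to 6.35 and 3.34 to 3.68. Igfbp7 kept its side of the thresholds in 15 of 17 alternatives (0.43 to 0.56 over left-out mice) and became a DEG with upper quartile scaling (0.591) and with library size alone (0.896), settings that put the median of all tested genes at 0.119 and 0.421. With library size alone, 5985 genes were higher and 1338 lower, and 5 genes of the growth factor axis were lower DEGs. With stricter thresholds (adjusted p 0.01, fold 2), 3172 genes were called, 1918 higher and 1254 lower. That rule left 0 higher lipocalin genes, 5 higher regulators of Lcn2, and 2 higher and 5 lower genes of the growth factor axis. With a mean of at least 50 counts, 1 lipocalin and 2 clusterin partners were higher DEGs, and thinning to the lowest total left 1 higher lipocalin. Over left-out mice the higher genes of the growth factor axis numbered 2 to 4, the lower number without day 0 replicate 2, day 21 replicate 2 or day 21 replicate 3. By longest transcript, the day 21 means of Lcn2 and Clu were 371 and 2370 CPM per kilobase. Signs turned for Plvap with library size alone (0.136), and over left-out mice for Eng (-0.026 to 0.22), Mmp9 (-0.034 to 0.81) and Tnfrsf12a (-0.30 to 1.32), none of them called in the full data. Krt20 lost its call with DESeq2 (3.35). In all, 1151 results of the other 70 named genes kept direction and call, 10 gained a call, 11 lost one and 5 turned. The cause was not tested.

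The main fit did not pair mice by replicate number. Deviations from the group means correlated at -0.03, 0.18 and 0.11 for numbers 1, 2 and 3. Mice with unlike numbers were not compared, so these values cannot show whether the numbers pair the mice. With a replicate block, 3235 genes were higher and 2523 lower, against 3249 and 2572 without it, and Igfbp6 lost its call (adjusted p = 0.055). Havcr1 and Lcn2 on day 0 are limited by depth, with 123 and 210 reads over 3 libraries, a larger relative counting error than that of Clu and Igfbp7.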
